A study of Mus musculus with 12 samples.

Results

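The interleukin-6 (IL-6) family of cytokines and its signaling chain were examined in mouse heart by RNA sequencing. The 10 genes Il6, Lif, Osm, Il6ra, Il6st, Lifr, Osmr, Il11ra1, Stat3 and Socs3 were taken by name from a table of 53465 genes. Each name was found in 1 row, and 8 of the 10 had enough counts to be tested among 16101 genes, while Il6 and Osm did not. Left ventricles came from 4 groups of 3 mice, with 1 library per mouse. All mice carried floxed Adam17 alleles on a C57BL/6J background. A17fl/fl mice carried no Cre, and their A17α-MHCKO littermates carried Cre under the α-myosin heavy chain (α-MHC) promoter, which removes exon 2 of Adam17 in cardiomyocytes, so the other cells of the heart keep the gene. A17fl/fl + DOX and A17α-MHCKO + DOX mice received 4 weekly intraperitoneal injections of 5 mg/kg doxorubicin, an anthracycline used against tumors, to a total of 20 mg/kg. A17fl/fl + NS and A17α-MHCKO + NS mice received normal saline on the same days. The mice were males, 8 weeks old when chosen for the experiment, and hearts were taken 4 weeks after the last injection.

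Cytokines of the IL-6 family share the receptor subunit gp130, the product of Il6st. IL-6 binds the receptor encoded by Il6ra, leukemia inhibitory factor (Lif) binds the product of Lifr, oncostatin M (Osm) binds that of Osmr and interleukin-11 that of Il11ra1, and each complex recruits gp130. Janus kinases attached to gp130 then phosphorylate STAT3, which enters the nucleus and induces target genes, among them Socs3, whose product binds gp130 and damps the signal. ADAM17, the protease deleted here, cuts the IL-6 receptor from the cell surface, and the soluble receptor lets IL-6 act on cells that lack it. In heart muscle, gp130 and STAT3 signaling is known for roles in cell survival and in growth under load.

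Socs3 is a known direct target of STAT3, and its promoter is shown for the STAT motif it holds. RefSeq windows reaching from 250 bases before to 50 bases after each gene's start were searched for TTCNNNGAA, which reads the same on both strands. Windows were found for 9 of the 10 members (11 windows, since Il11ra1 and Lifr have 2 each). No window was found for Osm. The motif was in 1 of the 11 windows, that of Socs3, and in 2726 of all 32851 windows (8.3%). The 165 bases printed lie upstream of the start at chr11:117969452-117969616 (GRCm38.p6, reverse strand), in an intron of 1 annotated Socs3 transcript, and capitals mark the motif, whose first base lies 154 bases before the start.
Socs3 promoter: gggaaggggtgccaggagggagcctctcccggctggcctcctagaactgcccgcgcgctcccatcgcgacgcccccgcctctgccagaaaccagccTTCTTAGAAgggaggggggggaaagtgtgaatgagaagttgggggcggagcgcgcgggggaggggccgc
The match is a description of letters. Binding of STAT3 was not measured in these libraries.

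Total counts were between 15950717 and 21725076 per library. Adam17 itself was at 43.6 to 70.9 CPM (counts scaled to the library total, adjusted by edgeR's trimmed mean of M values, TMM) in the 6 A17fl/fl libraries and at 27.9 to 36.8 CPM in the 6 A17α-MHCKO libraries, without overlap, as the labels say. Cardiomyocyte markers (Myh6, Tnnt2, Actc1, Ryr2, Tnni3, Myl2) were all detected in every group. The 4 atrial markers (Nppa, Myl7, Myl4, Sln) summed to between 332 and 8048 CPM across libraries, although the study describes left ventricular samples.

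The library A17fl/fl + NS replicate 1 stood apart from the other 11. Its mean correlation of log2 CPM with the others was 0.900, against 0.948 to 0.966 for the rest, which is a description across genes. It lay outside the range of the other 11 libraries for 9 of the 10 members, Il6st being the exception, and for 51.1% of all tested genes (26.1% above and 24.9% below). In this library the neutrophil markers summed to 2390 CPM against 9.88 to 67.9 CPM in the others, with 6 of 6 markers highest there. The macrophage markers summed to 781 against 337 to 429 CPM (6 of 6 highest there), and the cardiomyocyte markers to 14862 against 23828 to 39372 CPM. The fibroblast markers summed to 7219 against 1137 to 2376 CPM, mostly from Col1a1 (2262 CPM) and Col3a1 (3801 CPM). Only 3 of 6 fibroblast markers were highest there, and Tcf21 and Lum were below all other libraries. The part of these cell types in the values of the members was not tested. In whole tissue, more or fewer cells of a type and more or less RNA per cell cannot be told apart. Comparisons that include this library are therefore given with and without it for the members that met an unadjusted p under 0.05.

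The 3 cytokine genes were close to the detection limit in 11 libraries and high in 1. Il6 (chr5:30013114-30019981, forward strand) had 726 fragments, or 41.9 CPM, in A17fl/fl + NS replicate 1 and 3 and 4 fragments in replicates 2 and 3. It had 2, 0 and 3 fragments in A17fl/fl + DOX mice, 0, 0 and 11 in A17α-MHCKO + NS mice and 2, 0 and 0 in A17α-MHCKO + DOX mice. The 11 other libraries together held 25 Il6 fragments, 5 of the 11 held 0, and the highest of them was at 0.639 CPM, so replicate 1 was 65.5 times the next highest library. A count of 0 allows a level of up to 3 fragments, which was 0.130 to 0.195 CPM depending on the library. Of the 11 libraries, A17α-MHCKO + NS replicate 3 with 11 fragments and A17fl/fl + NS replicate 3 with 4 were above that level. The rest held at most 3 fragments.

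Osm (chr11:4236420-4241026, forward strand), a cytokine made mainly by leukocytes, showed the same arrangement. It had 286 fragments, or 16.5 CPM, in A17fl/fl + NS replicate 1 and 5 and 1 fragments in replicates 2 and 3. Counts were 7, 7 and 0 in A17fl/fl + DOX mice, 1, 6 and 9 in A17α-MHCKO + NS mice and 4, 7 and 0 in A17α-MHCKO + DOX mice. Replicate 1 was 31.6 times the next highest library, and the groups otherwise overlapped throughout.

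Lif (chr11:4257557-4272514, forward strand), which supports stem cells in culture and acts through Lifr and gp130, was the 1 cytokine gene tested. It was at 12.1, 0.479 and 0.439 CPM in A17fl/fl + NS mice, at 1.13, 0.800 and 0.497 CPM in A17fl/fl + DOX mice, at 0.309, 0.475 and 0.872 CPM in A17α-MHCKO + NS mice and at 0.566, 0.390 and 0.668 CPM in A17α-MHCKO + DOX mice. Replicate 1 of A17fl/fl + NS was 10.7 times the next highest library, and no other library had more than 18 fragments. Without it, the 2 remaining A17fl/fl + NS values lay below all 3 A17fl/fl + DOX values. Lif was lower in A17fl/fl + DOX than in A17fl/fl + NS mice by a fitted log2 difference of -2.41 (SE 1.05, edgeR unadjusted p = 0.0417, adjusted p = 0.453), and this turned to 0.81 (SE 0.57, unadjusted p = 0.182) without the library.

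**Figure D1:**
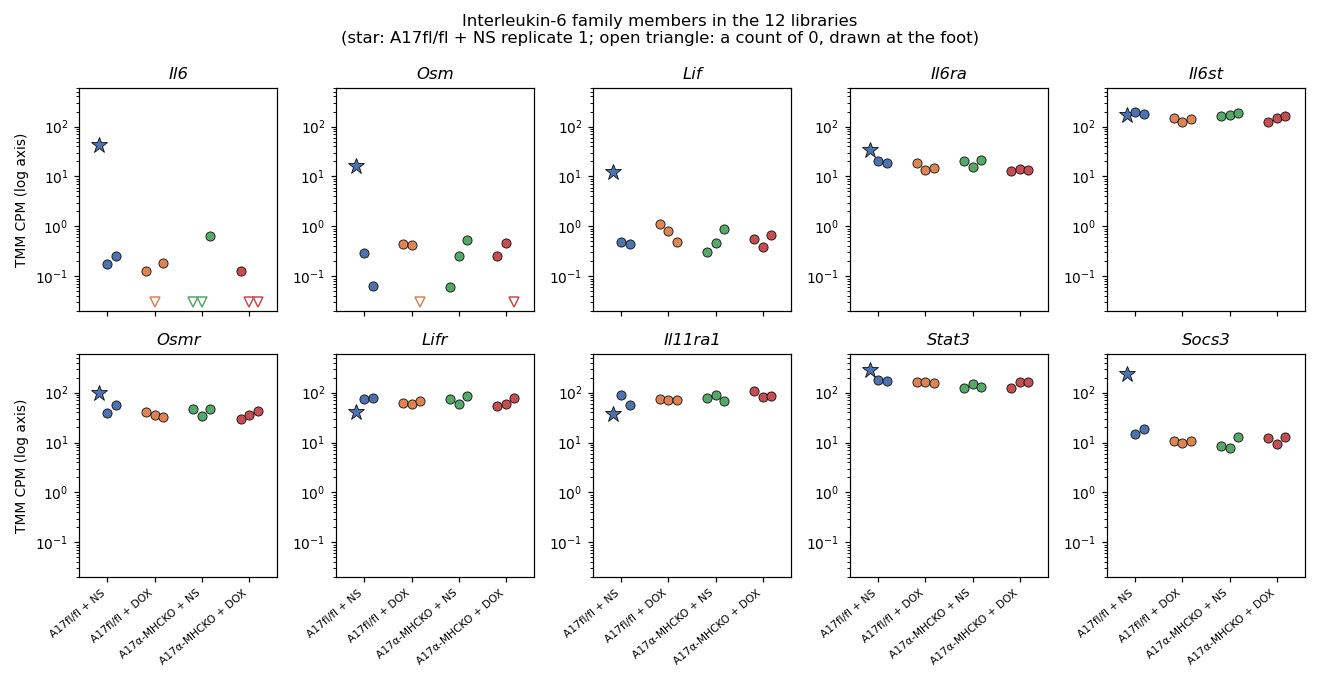
TMM-normalized CPM of the 10 members on a log axis, 1 panel per gene and 1 point per library in the 4 groups. The star is A17fl/fl + NS replicate 1, which is the highest point for Il6, Osm, Lif, Il6ra, Osmr, Stat3 and Socs3 and the lowest for Lifr and Il11ra1, and open triangles at the foot are counts of 0 (5 libraries for Il6, 2 for Osm).

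Receptor and signaling genes were far above the cytokine genes when compared per length. Over the 11 libraries other than A17fl/fl + NS replicate 1, the median level was 11.9 FPKM (fragments scaled by gene length and library total) for Il11ra1, 9.90 for Stat3, 9.05 for Il6st, 4.80 for Lifr, 3.27 for Socs3, 2.74 for Osmr and 1.48 for Il6ra. The median FPKM was 0.114 for Lif, 0.108 for Osm and 0.0298 for Il6. Neighbors in this order overlapped in range, except that every Il6st level (6.89 to 11.4 FPKM) was above every Lifr level (3.76 to 6.62 FPKM) and every Il6ra level (1.15 to 2.06 FPKM) was above every Lif level (0.0665 to 0.254 FPKM). Among the ligand-binding subunits, the interleukin-11 receptor thus had the highest median and the IL-6 receptor the lowest. Il11ra1 levels are uncertain, since its close copy Il11ra2 is listed in 3 rows and fragments could be split between them.

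**Figure D2:**
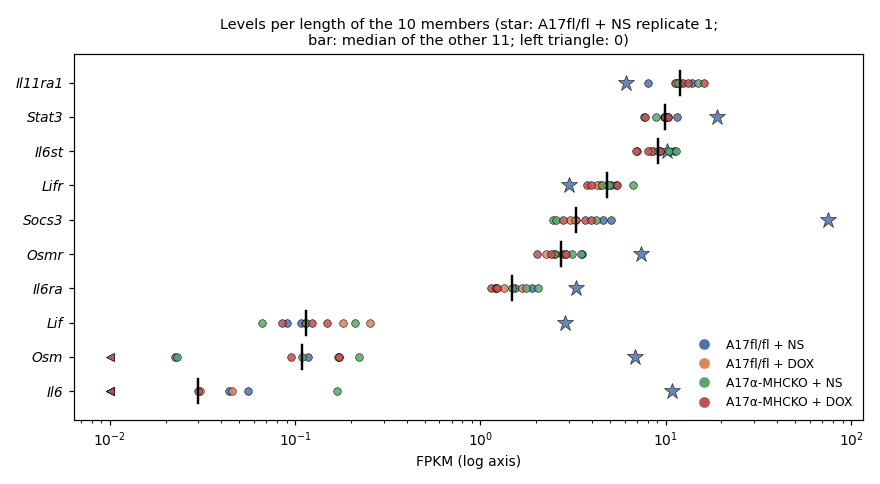
FPKM of the 10 members on a log axis, ordered by the median of 11 libraries (black bar), with 1 point per library colored by group. The star, A17fl/fl + NS replicate 1, lies apart from the other points most for Il6, Osm, Lif and Socs3 (10.8, 6.83, 2.87 and 74.8 FPKM), and triangles at the left edge are levels of 0.

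Il6st (chr13:112464070-112510086, forward strand), which encodes the shared subunit gp130, was lower after doxorubicin in both genotypes. It was at 168, 195 and 179 CPM in A17fl/fl + NS mice, at 166, 171 and 185 CPM in A17α-MHCKO + NS mice, at 151, 122 and 144.5 CPM in A17fl/fl + DOX mice and at 125, 146 and 164 CPM in A17α-MHCKO + DOX mice. The lowest of the 6 saline libraries (166 CPM) was above the highest of the 6 doxorubicin libraries (164 CPM). Over both genotypes the log2 difference was -0.32 (SE 0.10), a level 19.8% lower by the fit, with an unadjusted p of 0.00796 and an adjusted p of 0.345 in edgeR's quasi-likelihood test. An exact two-sided permutation test of the CPM, 6 libraries against 6, gave p = 0.00216, the smallest it can give. With A17fl/fl + NS replicate 1 left out, the difference was -0.35 (SE 0.10, unadjusted p = 0.00398, adjusted p = 0.166). Across all tested genes, 1.16% had 6 saline and 6 doxorubicin libraries without overlap.

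Il6ra (chr3:89864059-89913196, reverse strand) encodes the IL-6 receptor that ADAM17 cuts from the cell. It was at 34.1, 20.7 and 18.5 CPM in A17fl/fl + NS mice, at 18.5, 13.2 and 14.6 CPM in A17fl/fl + DOX mice, at 20.1, 15.2 and 20.9 CPM in A17α-MHCKO + NS mice and at 13.0, 13.8 and 13.7 CPM in A17α-MHCKO + DOX mice. Within each genotype the saline values were above the doxorubicin values, in A17fl/fl mice by a margin of under 0.1 CPM. Over both genotypes Il6ra was lower after doxorubicin by a log2 difference of -0.57 (SE 0.16, unadjusted p = 0.00480, adjusted p = 0.309 in edgeR's test), and an exact two-sided permutation test gave p = 0.00433. Leaving out A17fl/fl + NS replicate 1 gave a difference of -0.41 (SE 0.12, unadjusted p = 0.00514, adjusted p = 0.177). Of the 8642 exon bases of Il6ra, 242 overlap an antisense gene, Gm42809.

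Osmr (chr15:6813577-6874969, reverse strand), the oncostatin M receptor subunit, was at 99.9, 39.3 and 55.9 CPM in A17fl/fl + NS mice and at 41.1, 36.1 and 32.1 CPM in A17fl/fl + DOX mice. It was at 47.0, 33.4 and 46.4 CPM in A17α-MHCKO + NS mice and at 30.0, 35.9 and 41.9 CPM in A17α-MHCKO + DOX mice. Treated and untreated libraries overlapped in each genotype. Over both genotypes Osmr was lower after doxorubicin by a log2 difference of -0.54 (SE 0.21, edgeR unadjusted p = 0.0237), or -0.31 (SE 0.14, unadjusted p = 0.0454) without A17fl/fl + NS replicate 1, with adjusted p values of 0.410 and 0.323.

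Lifr and Il11ra1 went the other way in the library that stood apart, where both were at their lowest. Lifr (chr15:7090614-7197489, forward strand), which pairs with gp130 to bind Lif, was at 40.2, 75.6 and 78.5 CPM in A17fl/fl + NS mice, at 62.8, 59.6 and 67.4 CPM in A17fl/fl + DOX mice, at 72.8, 60.2 and 86.8 CPM in A17α-MHCKO + NS mice and at 54.8, 57.8 and 77.5 CPM in A17α-MHCKO + DOX mice. Its groups overlapped in all comparisons of the 12 libraries, with log2 differences between -0.21 and 0.18 in the 4 comparisons of 3 against 3 mice. Without A17fl/fl + NS replicate 1, the remaining A17fl/fl + NS values of Lifr were above all A17fl/fl + DOX values. The log2 difference was then -0.29 (SE 0.18, edgeR unadjusted p = 0.132). Over both genotypes it was -0.25 (SE 0.12, edgeR unadjusted p = 0.0600, adjusted p = 0.353). How many genes separate in this way was not counted. Il11ra1 (chr4:41699989-41769474, forward strand), the interleukin-11 receptor, was at 36.6, 87.5 and 55.7 CPM in A17fl/fl + NS mice, at 75.4, 71.1 and 71.2 CPM in A17fl/fl + DOX mice, at 77.5, 88.2 and 68.4 CPM in A17α-MHCKO + NS mice and at 105, 81.2 and 83.9 CPM in A17α-MHCKO + DOX mice. After doxorubicin its 3 knockout values were above its 3 floxed values, by a log2 difference of 0.31 (SE 0.25, edgeR unadjusted p = 0.242, exact permutation p = 0.1, the smallest that 3 against 3 can give).

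Stat3 (chr11:100885098-100939540, reverse strand), which encodes the transcription factor downstream of gp130, was lowest in A17α-MHCKO + NS mice by group mean. It was at 283, 181 and 168 CPM in A17fl/fl + NS mice, at 163, 160 and 155 CPM in A17fl/fl + DOX mice, at 125, 146 and 129 CPM in A17α-MHCKO + NS mice and at 126, 161 and 163 CPM in A17α-MHCKO + DOX mice. All 3 A17fl/fl + NS libraries were above all 3 A17α-MHCKO + NS libraries, while the genotypes overlapped after doxorubicin. The genotype difference after saline was -0.66 on the log2 scale (SE 0.19, edgeR unadjusted p = 0.00573, adjusted p = 0.323) and -0.39 (SE 0.14, unadjusted p = 0.0151, adjusted p = 0.367) without A17fl/fl + NS replicate 1. Stat3 shares 72 exon bases with Stat5a on the opposite strand.

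Socs3 (chr11:117966079-117970047, reverse strand), the feedback inhibitor, had its 3 highest values in A17fl/fl + NS mice. It was at 233, 15.1 and 18.2 CPM in A17fl/fl + NS mice, at 10.8, 9.97 and 10.6 CPM in A17fl/fl + DOX mice, at 8.52, 7.86 and 12.8 CPM in A17α-MHCKO + NS mice and at 12.4, 9.49 and 13.1 CPM in A17α-MHCKO + DOX mice. All 3 A17fl/fl + NS values were above all 9 values of the other groups, and replicate 1 was 12.8 times the next highest library. The lowest of the 3 was at 15.1 CPM and the highest of the 9 at 13.1 CPM. How many tested genes separate in this way was not counted, so the separation is a description of Socs3 only. Replicate 1 by itself was above all other libraries for 26.1% of tested genes. The immediate-early genes, which respond within minutes to stress and handling, summed to 226, 169 and 71.1 CPM in the 3 A17fl/fl + NS libraries and to between 67.3 and 140 CPM in the others. Their part in the Socs3 values was not tested.

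**Figure D3:**
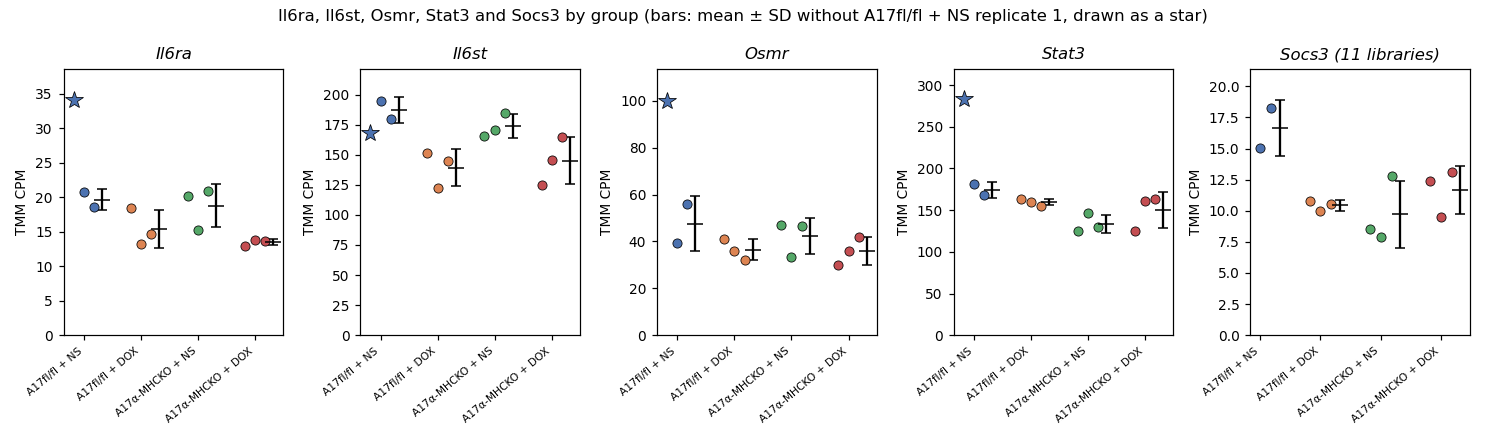
TMM CPM of the 5 members that had an unadjusted p under 0.05 in any comparison of the 11 libraries, 1 point per library, with the mean ± SD of each group without A17fl/fl + NS replicate 1 drawn as a dash with error bars. The star is that library, left out of the Socs3 panel, where it is at 233 CPM. The 6 doxorubicin points of Il6st are all below the 6 saline points, and the 2 A17fl/fl + NS points of Socs3 are above the 9 points of the other groups. How many genes separate as Socs3 does was not counted.

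The comparison of A17fl/fl + DOX with A17fl/fl + NS mice asked what doxorubicin does when cardiomyocytes keep ADAM17. No member passed an adjusted p of 0.05 in edgeR's quasi-likelihood test, as no gene did (percent called 0). DESeq2 called 158 genes and no member, but it gave no p for Socs3 or Lif, which it therefore did not test. By an unadjusted p under 0.05, which 10.7% of tested genes met (6.58% were lower), 5 of 8 members were lower and none was higher. They were Socs3 with a log2 difference of -3.09 (SE 0.86, unadjusted p = 0.00400, adjusted p = 0.341), Il6ra with -0.66 (SE 0.23, unadjusted p = 0.0144), Osmr with -0.84 (SE 0.29, unadjusted p = 0.0147), Il6st with -0.38 (SE 0.14, unadjusted p = 0.0209) and Lif, given above. The other 3 lay between -0.40 (Stat3) and 0.27 (Il11ra1). When A17fl/fl + NS replicate 1 was left out, 2 of 8 met the unadjusted limit, as did 10.2% of genes (5.6% lower). These were Socs3 with -0.68 (SE 0.22, unadjusted p = 0.00982, adjusted p = 0.339) and Il6st with -0.43 (SE 0.14, unadjusted p = 0.0114, adjusted p = 0.351). Il6ra was then at -0.35 (SE 0.18, unadjusted p = 0.0721) and Osmr at -0.39 (SE 0.21, unadjusted p = 0.0848). When replicate 2 was left out instead, Socs3 and Osmr passed the adjusted limit (adjusted p = 0.0355 and 0.0487), as did 391 of 16445 genes. Without A17fl/fl + DOX replicate 2 the unadjusted limit was met by 3 members (Il6, Osmr, Socs3) and by 1045 of 16517 genes. The Il6 difference there rests on A17fl/fl + NS replicate 1 (726 fragments, against 3 and 4 in replicates 2 and 3). Values did not overlap between the groups for Il6ra, Il6st, Stat3 and Socs3, 4 of 8 members, against 13.3% of genes, and 3 mice against 3 cannot give an exact p below 0.1. The limits the study set were a log2 fold change beyond 1 in either direction, a mean FPKM over 1 and an unadjusted p under 0.05. They were met by Socs3 and Lif and by 2.82% of genes. Neither gene met them without A17fl/fl + NS replicate 1, where Socs3 was at -0.68 and Lif at 0.81 on the log2 scale.

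In A17α-MHCKO mice the same treatment was compared with saline. None of the 8 members met an unadjusted p under 0.05, against 6.42% of genes, and by adjusted p percent called was 0 (DESeq2 called 38 genes). The differences were between -0.47 (Il6ra, SE 0.23, unadjusted p = 0.0634) and 0.27 (Socs3, SE 0.82) on the log2 scale. The groups did not overlap for Il6ra and Il6st, against 16.9% of genes. Leaving out A17fl/fl + NS replicate 3 or A17α-MHCKO + NS replicate 2 also brought Il6ra under the limit, as it did 1224 or 1019 of 16491 genes. Leaving out A17α-MHCKO + DOX replicate 3 brought Il6st under it, as it did 1161 of 16488 genes. Il6ra, without A17fl/fl + NS replicate 1, which enters only the shared estimate of the spread, met the unadjusted limit (log2 difference -0.47, SE 0.16, unadjusted p = 0.0126), as did 11.5% of genes.

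Between the genotypes after saline, 3 of 8 members met the unadjusted limit and all 3 were lower in the knockout, while 10.1% of genes met it and 6.53% were lower. Socs3 differed by -3.19 on the log2 scale (SE 0.86, unadjusted p = 0.00329, adjusted p = 0.313), Stat3 by the value given above and Lif by -2.96 (SE 1.08, unadjusted p = 0.0188). Without A17fl/fl + NS replicate 1, Socs3 at -0.78 (SE 0.22, unadjusted p = 0.00408, adjusted p = 0.238) and Stat3 met it, as did 10.2% of genes (5.65% lower), and Lif was at 0.26 (SE 0.57). No member passed the adjusted limit, which 0.0186% of genes did. With replicate 2 of A17fl/fl + NS left out, Socs3 passed it (adjusted p = 0.0224), as did 672 of 16445 genes. Il6 then entered the test and passed too, but with 726 fragments in replicate 1 and 4 in replicate 3, so its result rests on replicate 1. The unadjusted limit was met by 6 members without replicate 2 (3304 of 16445 genes) or without replicate 3 (2453 of 16491 genes), and these 6 can include Il6. Stat3 and Socs3 did not overlap between the groups, against 10.9% of genes. Atrial markers summed to 3864 to 8048 CPM in A17α-MHCKO + NS mice and to 332 to 6972 CPM in A17fl/fl + NS mice, and their part in these differences was not tested.

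After doxorubicin the genotypes could not be separated for any member by an unadjusted p under 0.05, a limit that 2.7% of genes met (5.85% without A17fl/fl + NS replicate 1, again with no member). The log2 differences lay between -0.57 (Lif, SE 1.12) and 0.31 (Il11ra1). Only Il11ra1 had groups without overlap, against 14.1% of genes, and 0.00621% of genes passed the adjusted limit. No member met the limits the study set, against 0.205% of genes.

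Whether doxorubicin acted differently in the 2 genotypes was tested as an interaction, taken as the doxorubicin difference of the knockout less the one of the floxed mice. Socs3 was the 1 member of 8 with an unadjusted p under 0.05, at 3.35 on the log2 scale (SE 1.17, unadjusted p = 0.0149, adjusted p = 0.828), against 5.99% of genes. In the 11 libraries other than A17fl/fl + NS replicate 1 it was at 0.94 (SE 0.30, unadjusted p = 0.00837, adjusted p = 0.531), again as 1 member, against 7.13% of genes. Stat3 was at 0.57 (SE 0.27, unadjusted p = 0.0609), or 0.30 (SE 0.18, unadjusted p = 0.129) in those 11 libraries. The percent called by adjusted p was 0 over all genes. DESeq2 called 18 genes and none of the members, but it gave no p for Socs3. The count was 3 without A17fl/fl + NS replicate 2 (Osmr, Stat3, Socs3), where 2345 of 16445 genes met the limit. It was 2 (Stat3, Socs3) without A17fl/fl + NS replicate 3 (1598 of 16491 genes) or A17α-MHCKO + DOX replicate 1 (667 of 16499 genes).

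Over both genotypes, doxorubicin gave 4 of 8 members an unadjusted p under 0.05, against 10.7% of genes. These were Il6ra, Il6st and Osmr, given above, and Socs3 at -1.41 (SE 0.58, unadjusted p = 0.0329), which without A17fl/fl + NS replicate 1 was at -0.20 (SE 0.15, unadjusted p = 0.193). The 3 receptor genes met the limit without A17fl/fl + NS replicate 1 too, as did 15% of genes. The count was 7 without A17fl/fl + NS replicate 2, where 2700 of 16445 genes met the limit. Il6 also entered the test in that fit, on its 726 fragments in A17fl/fl + NS replicate 1, so the 7 can include it. The count was 2 without A17α-MHCKO + DOX replicate 1 (Il6ra, Il6st), where 1285 of 16499 genes met the limit. No gene passed the adjusted limit (percent called 0), where DESeq2 called 140 genes and no member, but gave no p for Socs3. Cardiomyocyte markers summed to 33930 to 39372 CPM in the 6 doxorubicin libraries and to 14862 to 34812 CPM in the 6 saline libraries, and fibroblast markers to 1333 to 1559 CPM and 1137 to 7219 CPM. Their part in the receptor differences was not tested. Between the genotypes over both treatments, Stat3 was lower in the knockout by -0.37 on the log2 scale (SE 0.14, edgeR unadjusted p = 0.0189, adjusted p = 0.736, exact permutation p = 0.0195), with Socs3 at -1.52 and Lif at -1.77, or -0.31 and -0.16 without A17fl/fl + NS replicate 1. These 3 of 8 members compare with 6.65% of genes by unadjusted p and 0.0248% by adjusted p, and no member had genotypes without overlap, as 0.335% of genes did. Without A17fl/fl + NS replicate 1 only Stat3 met the unadjusted limit (-0.24, SE 0.09, unadjusted p = 0.0239), as did 10.3% of genes. The count was 1, Stat3, also without A17α-MHCKO + NS replicate 2 (957 of 16491 genes) or A17α-MHCKO + DOX replicate 2 (1054 of 16527 genes). It was 5 without A17fl/fl + NS replicate 2, where 2218 of 16445 genes met the limit, and these 5 can again include Il6.

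**Figure D4:**
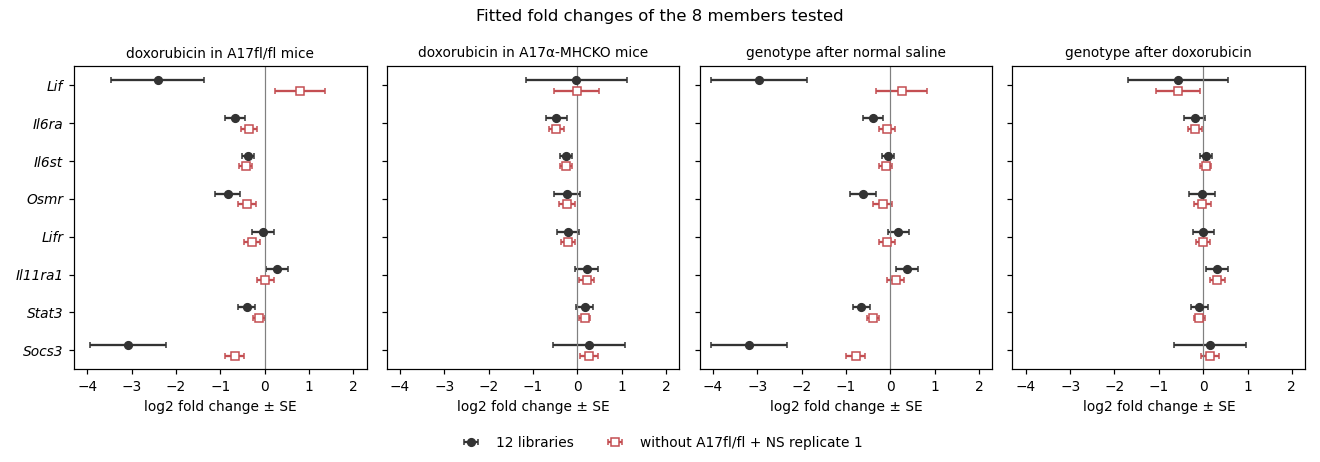
Fitted log2 fold changes with their SE for the 8 members tested in 4 comparisons, from all 12 libraries (filled circles) and without A17fl/fl + NS replicate 1 (open squares). In A17fl/fl mice Socs3 moves from -3.09 to -0.68 and Lif from -2.41 to 0.81 when that library is left out, while Il6st stays at -0.38 and -0.43.

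The other genes of the pathway were taken from lists of ligands, receptors, Janus kinases, inhibitors and response genes. Among the further ligands, Il11 (interleukin-11) was above all other libraries in A17fl/fl + NS replicate 1, at 6.41 CPM against 0 to 0.497 CPM, whereas Ctf1 (cardiotrophin-1) was below them at 2.14 CPM against 3.83 to 9.15 CPM. Ctf1 differed by -0.48 (SE 0.43, unadjusted p = 0.284) on the log2 scale for doxorubicin in A17fl/fl mice, and by -0.90 (SE 0.26, unadjusted p = 0.00492) without that library. Of 4 rows of further receptors tested, none met the limit in any of the 7 comparisons of the 12 libraries. For doxorubicin in A17fl/fl mice without replicate 1, 1 was lower, where 5.6% of all genes were.

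Among the 4 Janus kinases, Jak1, the main kinase of gp130, was lower after doxorubicin in both genotypes. It was at 195, 164 and 198 CPM in A17fl/fl + NS mice, at 207, 149 and 166 CPM in A17α-MHCKO + NS mice, at 152, 139.5 and 138 CPM in A17fl/fl + DOX mice and at 120, 143 and 126 CPM in A17α-MHCKO + DOX mice. Within each genotype all saline values were above all doxorubicin values, while over both genotypes the lowest saline value (149 CPM) was below the highest doxorubicin value (152 CPM). Jak1 differed by -0.40 (SE 0.11, unadjusted p = 0.00284, adjusted p = 0.301 in edgeR's test) over both genotypes, and by -0.39 (SE 0.11, unadjusted p = 0.00382) without A17fl/fl + NS replicate 1.

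Among 10 inhibitors and phosphatases, none met an unadjusted p under 0.05 in the 7 comparisons of all 12 libraries. For doxorubicin in A17fl/fl mice without replicate 1, 2 were higher and 1 lower, with the feedback inhibitor Socs1 at 1.51 (SE 0.48, unadjusted p = 0.00897).

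Of 23 genes known to respond to IL-6 and STAT3, 20 were above the other 11 libraries in A17fl/fl + NS replicate 1 and 0 below. Among all tested genes 26.1% were above and 24.9% below. The list was chosen with earlier results of these data known, so its counts here and below are descriptions and not independent support. The 20 include Fgb (1 fragment there) and Reg3b (9 fragments), which had too few counts to be tested. The acute-phase gene Saa3 was at 917 CPM there and at 0.185 to 1.63 CPM elsewhere, the secreted inhibitor Timp1 at 734 against 2.90 to 10.2 CPM, and the iron-binding Lcn2 at 494 against 4.55 to 15.7 CPM. Of the 21 tested, 16 were lower and 0 higher after doxorubicin in A17fl/fl mice by unadjusted p, with a median log2 difference of -1.56 against -0.04 over all tested genes, of which 6.58% were lower by unadjusted p. Without that library 3 were lower and 1 higher, where 5.6% of all genes were lower, and the median was -0.30 against -0.01. The 3 smallest p values with all libraries belonged to Saa3 at -8.63 (SE 2.25, unadjusted p = 0.00263), the metallothionein Mt2 at -3.26 (SE 0.87, unadjusted p = 0.00310) and the protease inhibitor Serpina3n at -3.61 (SE 0.99, unadjusted p = 0.00357). Without the library Mt2 was at -1.29 (SE 0.48, unadjusted p = 0.0208), Serpina3n at -1.32 (SE 0.54, unadjusted p = 0.0335) and Saa3 at -0.79 (SE 0.58, unadjusted p = 0.201). The receptor gene Il4ra was at -0.65 (SE 0.15, unadjusted p = 0.00132) and the chemokine gene Ccl2 at 0.87 (SE 0.36, unadjusted p = 0.0340).

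In A17α-MHCKO mice none of the 21 response genes met the unadjusted limit after doxorubicin, against 6.42% of genes, with a median of 0.23 against 0.00 over all genes. Without the library 2 of 21 met it, against 11.5% of all genes, so their number does not stand out. They were higher, Junb at 0.58 (SE 0.15, unadjusted p = 0.00252) and Lcn2 at 0.83 (SE 0.38, unadjusted p = 0.0498). Between the genotypes after saline 13 of 21 were lower in the knockout and 0 higher, where 6.53% of all genes were lower. Without the library 5 were lower and 0 higher, where 5.65% of all genes were lower, among them Junb at -0.67 (SE 0.16, unadjusted p = 0.00174) and Serpina3n at -1.77 (SE 0.55, unadjusted p = 0.00758). After doxorubicin none met the limit between the genotypes, against 2.7% of genes. Without the library 1 of 21 did, against 5.85% of genes, Mt2 at 1.002 (SE 0.44, unadjusted p = 0.0443). The interaction was higher for 11 of 21, where 3.5% of genes were, and for 5 without the library, where 3.82% of genes were. Junb, an immediate-early factor, was then at 0.77 (SE 0.22, unadjusted p = 0.00530), with 43.9 and 45.1 CPM in the 2 other A17fl/fl + NS libraries, 41.2, 35.9 and 40.4 CPM in A17fl/fl + DOX mice, 22.8, 26.4 and 34.6 CPM in A17α-MHCKO + NS mice and 37.2, 42.2 and 45.9 CPM in A17α-MHCKO + DOX mice. No gene of these lists passed an adjusted p of 0.05 in these comparisons.

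**Figure D5:**
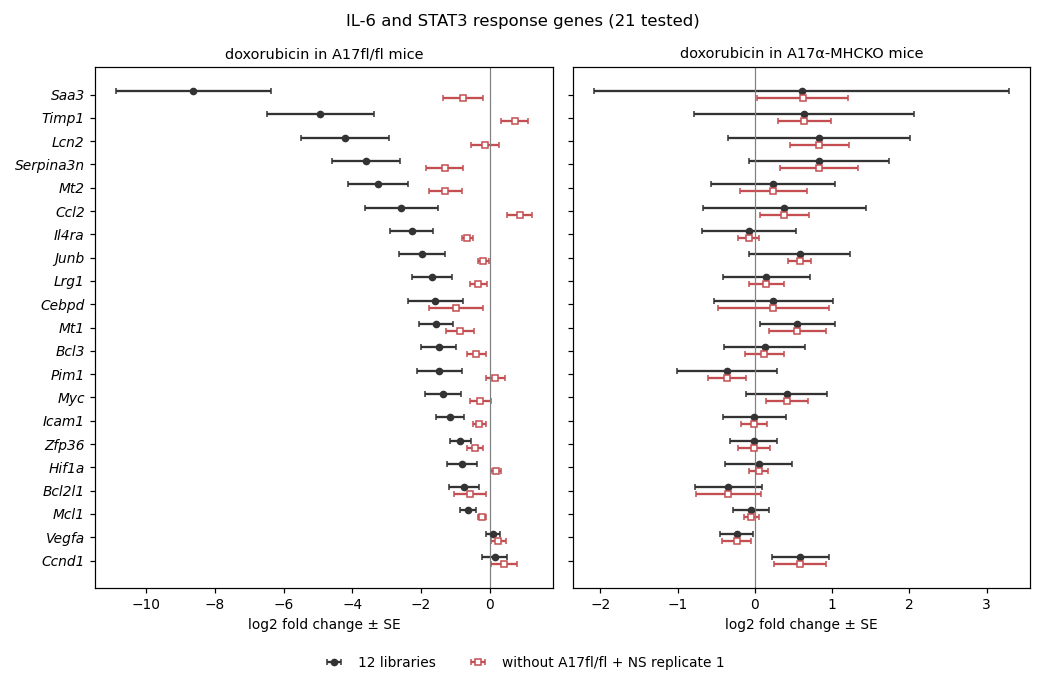
Fitted log2 fold changes with their SE for the 21 tested genes that respond to IL-6 and STAT3, for doxorubicin in A17fl/fl mice (left) and in A17α-MHCKO mice (right), from 12 libraries (filled circles) and without A17fl/fl + NS replicate 1 (open squares). On the left 16 genes are lower at an unadjusted p under 0.05, where 6.58% of all tested genes are lower. Without that library 3 are lower and 1 is higher, where 5.6% of all genes are lower.

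The genes most like each member across libraries were sought among all tested genes by Pearson's r of log2 CPM, given as a description over libraries that share groups. For Socs3 over 12 libraries they were Rnd1 (r = 0.991), Nfkbiz (0.979) and Sbno2 (0.977), and over the 11 libraries none of these but Nalcn (0.904), Tspyl2 (0.899) and Mgst1 (0.895). For Il6st the first gene was Rb1cc1 both over 12 (r = 0.950) and over 11 libraries (0.970), and for Lifr it was Foxn3 in both (0.957 and 0.910). Osmr was most like Cd47 over 12 libraries (r = 0.981), which came second over 11 (0.939) after Heca (0.974). The first gene changed for Lif (Msr1 to Emc8), Il6ra (Atp7a to Akap11), Il11ra1 (Spryd7 to Mrpl40) and Stat3 (Pcdhgc5 to Kcnk2).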

How the data were processed

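Total RNA from left ventricles of 12 mice was made into stranded paired-end mRNA libraries by the authors. The deposited table holds, for each mouse, a whole-number count of fragments per gene, which the authors made with StringTie, without normalization. It also holds FPKM, which the authors deposited as counts divided by gene length and library total. The submitters' processing notes name CASAVA 1.8, HISAT2, SAMtools 1.3.1, edgeR and the build GRCm39. The annotation and the strand setting of the counting are not given in the sources used here. Positions are GRCm38 from GENCODE M21 (53274 of 53465 gene identifiers), and promoter windows are from RefSeq on GRCm38.p6.

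Counts were tested with edgeR 4.0.16 in R 4.3.3 (filterByExpr, TMM, glmQLFit, glmQLFTest), in one fit with a mean for each of 4 groups and with Benjamini-Hochberg adjustment over 16101 genes. All 24 value columns matched a mouse, and 0 were unused. An approximate SE was taken from each log2 fold change and the root of its F statistic. All CPM used TMM factors. Exact permutation tests were two-sided. Alternatives were DESeq2 1.42.0, limma 3.58.1 (voom), other scalings and filters, a replicate block and leaving out each library. Tests were checked on simulated data. Chi-square per degree of freedom between libraries of a group was 11.1 to 170, so all 12 were counted as separate samples. Groups were taken from the labels, and p-values measure the spread between these mice.

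The members and lists were chosen with earlier results of these data known. A member's fold change is given where its unadjusted p was under 0.05, other members by range, and up to 3 genes of a list by smallest p. Genes named beyond that rule (Il11, Ctf1, Timp1, Lcn2, Il4ra, Ccl2, Junb, Socs1, Mt2 after doxorubicin, and Lifr without A17fl/fl + NS replicate 1) were chosen after their values were seen. Total counts per library were 15950717 to 21725076. Intervals and floors cover counting error only.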

Additional observations from a re-analysis of the deposited data

How the results depend on the processing

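The number of the 8 members with an unadjusted p under 0.05 moved with the method. DESeq2 gave 3 for doxorubicin in A17fl/fl mice (Il6ra, Il6st, Osmr), 0 for the interaction and 1 for genotype over both treatments (Stat3). Of the 30200 genes it tested, 1917, 1103 and 1260 met the limit in these comparisons. DESeq2 gave no p for Socs3 in them and none for Lif in the first and last. The DESeq2 counts therefore say nothing about those genes there. Voom with a weight for each library gave 2 for doxorubicin in A17fl/fl mice (Il6st, Socs3), 2 in A17α-MHCKO mice (Il6ra, Stat3) and 1 for genotype over both treatments (Stat3), and turned Lif in A17fl/fl mice to 0.33. In these 3 comparisons voom had 1192, 2111 and 1188 of 16101 genes under the limit. With no filter, genotype after saline gave 6, including Il6 and Osm, whose differences rest on A17fl/fl + NS replicate 1. There 2139 of 30451 genes met the limit. Only the groups compared gave 1 for doxorubicin in A17α-MHCKO mice (Il6ra), where 1667 of 15422 genes met the limit. They gave 1 for genotype after doxorubicin (Il11ra1), where 1104 of 15351 genes did. The likelihood ratio test gave 1 member by adjusted p, Socs3, for doxorubicin in A17fl/fl mice (0.0407) and for genotype after saline (0.0215). By the same adjusted limit it called 128 and 160 of 16101 genes. RLE and upper-quartile scaling and a minimum of 10 counts in every library moved no count of members by over 1.5 times.

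Same-numbered libraries did not deviate together (18 pairs, r from -0.104 to 0.219, 3 over 0.1), so the numbers were not taken to pair mice. With a replicate block the count was 1 for doxorubicin in A17α-MHCKO mice (Il6ra) and 1 for genotype over both treatments (Stat3), against 991 and 902 of 16101 genes.

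Leaving out each library in turn, the counts by unadjusted p were 2 to 7 for doxorubicin in A17fl/fl mice, 0 to 1 in A17α-MHCKO mice, 2 to 6 for genotype after saline, 0 to 0 after doxorubicin, 1 to 3 for the interaction, 2 to 7 for doxorubicin over both genotypes and 1 to 5 for genotype over both treatments. These counts can include Il6, which entered the test in some of these fits and rests on A17fl/fl + NS replicate 1. All-gene counts by unadjusted p, in the same order, were 1045 to 3422, 532 to 1881, 1160 to 3304, 214 to 959, 666 to 2345, 1193 to 2700 and 717 to 2218. By adjusted p the member counts were 0 to 2 for doxorubicin in A17fl/fl mice and for genotype after saline and 0 otherwise. The 2 were reached without A17fl/fl + NS replicate 2, where 391 and 672 of 16445 genes passed. Lif ranged from -2.94 to 0.81 for doxorubicin in A17fl/fl mice and from -3.49 to 0.26 for genotype after saline, the positive values being those without A17fl/fl + NS replicate 1. The causes of these moves were not tested. Over all genes, by adjusted p, DESeq2 called 158 for doxorubicin in A17fl/fl mice, 165 for genotype after saline and 26 for genotype over both treatments, against 0, 3 and 4 in edgeR's quasi-likelihood test.

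With 3 mice a group, one of them apart from the rest, moderate differences in the members cannot be resolved after adjustment over 16101 genes. Il6, Osm and Lif rest on few fragments in 11 libraries.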
